A study of Mus musculus with 6 samples.

Results

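Expression of 9 genes of T and B lymphocytes was followed in RNA from isolated mouse pancreatic islets. They were chosen by gene symbol, with earlier results of these data known, and all 9 were found among the 24421 genes of the deposited count table. Of these, 6 were listed as T cell genes (Cd3d, Cd3e, Cd3g, Cd4, Lck and Cd2) and 3 as B cell genes (Cd79a, Cd79b and Ms4a1). The samples were 3 islet libraries whose label is a Dhps knockout in β cells (C57.DhpsloxP.MIP1-CreERT) and 3 control islet libraries, every mouse being of C57BL/6J background. The Dhps product, deoxyhypusine synthase, makes the first step of the hypusine modification of eIF5A. The knockout label joins a floxed Dhps allele to a Cre recombinase that tamoxifen activates and the mouse insulin promoter drives, so that β cells, and not lymphocytes, are its intended target. The labels leave unstated the control genotype, Cre included, the age, sex and tamoxifen regimen of the animals, and the meaning of the HF prefix in the sample titles. They also do not say whether each replicate is a separate animal, and the p-values cover the spread between these libraries, which may be technical.

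The libraries held 21027737 to 23249895 counts, and the 9 genes together took 219 to 1568 of them. Islet identity was plain, with 5774688 to 6598837 counts of Ins2, an insulin gene, in knockout-labelled libraries and 6652932 to 7679613 in controls. Dhps itself did not separate the labels: its counts were 266, 271 and 225 in knockout-labelled libraries 1 to 3, and 260, 321 and 312 in controls 1 to 3. Its log2 fold change was −0.07 (edgeR quasi-likelihood adjusted p = 0.742). Counts over the whole gene cannot show whether the floxed allele was recombined, and islet cells other than β cells are not the intended target. The text therefore speaks of knockout-labelled libraries. Levels are given as CPM (counts scaled to TMM-adjusted library size), and the order of levels among the 9 genes is given per kilobase of exon. In bulk tissue, fewer lymphocytes and less RNA per lymphocyte cannot be told apart.

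T cells recognise antigen through a variable receptor that cannot signal by itself. The invariant CD3 chains carry the signal inward, CD4 holds the Src-family kinase LCK at the receptor, and LCK phosphorylates the tyrosine motifs of the CD3 tails. B cells use a membrane antibody in the same way, with CD79A and CD79B as an obligate signalling pair. Healthy islets hold few resident lymphocytes, while pancreatic lymph nodes beside them are rich in both kinds, and lymphocytes gather in and around islets in autoimmune diabetes.

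The 3 CD3 genes lie close together on mouse chromosome 9, and Cd3g and Cd3d are read in opposite directions from starts 1355 bp apart. Promoters of 5 of the 9 genes were matched in RefSeq (GRCm38.p6, the assembly of the mm10 build); Cd4, Cd2, Cd79b and Ms4a1 were not. The 250 bases upstream of the start are shown for the CD3 genes, which are neighbours with a shared pattern over the libraries, and for Cd79a, whose pattern departed from that of the other B cell genes.
Cd3d (chr9:44981536-44981785, plus strand): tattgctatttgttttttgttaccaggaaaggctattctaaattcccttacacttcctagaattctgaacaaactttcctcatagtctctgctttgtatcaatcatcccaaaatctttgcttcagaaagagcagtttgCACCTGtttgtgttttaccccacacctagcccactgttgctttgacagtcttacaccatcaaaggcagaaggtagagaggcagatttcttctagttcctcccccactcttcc
Cd3g (chr9:44980432-44980681, minus strand): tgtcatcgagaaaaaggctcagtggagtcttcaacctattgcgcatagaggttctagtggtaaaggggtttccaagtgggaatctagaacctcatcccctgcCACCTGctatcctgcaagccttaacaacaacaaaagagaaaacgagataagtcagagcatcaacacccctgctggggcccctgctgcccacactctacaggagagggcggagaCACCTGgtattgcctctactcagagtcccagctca
Cd3e (chr9:45009612-45009861, minus strand): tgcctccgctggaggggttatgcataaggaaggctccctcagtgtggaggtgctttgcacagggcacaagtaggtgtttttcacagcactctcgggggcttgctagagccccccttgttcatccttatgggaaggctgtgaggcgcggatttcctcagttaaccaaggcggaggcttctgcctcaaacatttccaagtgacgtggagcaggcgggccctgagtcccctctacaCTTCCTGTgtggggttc
Cd79a (chr7:24897247-24897496, plus strand): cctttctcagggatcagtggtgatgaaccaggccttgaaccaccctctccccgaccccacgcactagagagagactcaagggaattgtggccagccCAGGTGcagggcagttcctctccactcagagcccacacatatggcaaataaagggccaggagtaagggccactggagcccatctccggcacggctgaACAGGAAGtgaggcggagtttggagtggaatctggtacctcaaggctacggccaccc
Capitals mark matches, on either strand, to the E-box CAGNTG and to the ETS factor motif ACAGGAAG. Cd3d held 1 E-box match, Cd3g 2, Cd3e 1 ETS match, and Cd79a 1 of each, with no overlap between matches. Among 32851 promoter windows of the same length in that table, 44.8% held the E-box and 2.9% the ETS motif. The Runx motif TGTGGT (in 14% of windows), the TATA motif TATAAA (12.4%) and a strict palindromic form of the EBF1 motif (0.779%) had no exact match in the 4 windows. Only exact matches to a fixed form of each motif were sought, so sites that differ from it would be missed. The lack of a match therefore does not show that Cd79a, or any CD3 gene, lacks EBF1 or Runx sites.

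One library stood apart before any comparison of groups. Knockout-labelled library 2 held the highest level of all 9 genes among the 6 libraries. Its lead over the next library was smallest for Cd3d, at 1.54 times, and largest for Ms4a1, at 6.83 times. Summed over the 6 T cell genes, the level was 4.58, 19.2 and 8.33 CPM in knockout-labelled libraries 1 to 3, against 4.4, 2.79 and 1.5 CPM in controls 1 to 3. Lck alone gave 2.29, 7.0 and 3.71 CPM of these sums, against 2.36, 2.0 and 1.23 CPM in controls. The 3 B cell genes summed to 5.06, 54.5 and 12.2 CPM in knockout-labelled libraries 1 to 3, against 13.0, 16.7 and 9.53 CPM in controls 1 to 3. Of these sums Cd79a alone gave 4.84, 28.2 and 7.72 CPM, against 9.4, 16.3 and 9.26 CPM in controls. Knockout-labelled library 1 was lowest of its group for 8 of the 9 genes. It lay below control 1 for 6 of the 9, whereas knockout-labelled library 3 lay below control 1 for Cd79a alone. Control 1 was the highest control for 7 of the 9 genes. The fold changes of the 9 genes are therefore given with and without knockout-labelled library 2.

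**Figure D1:**
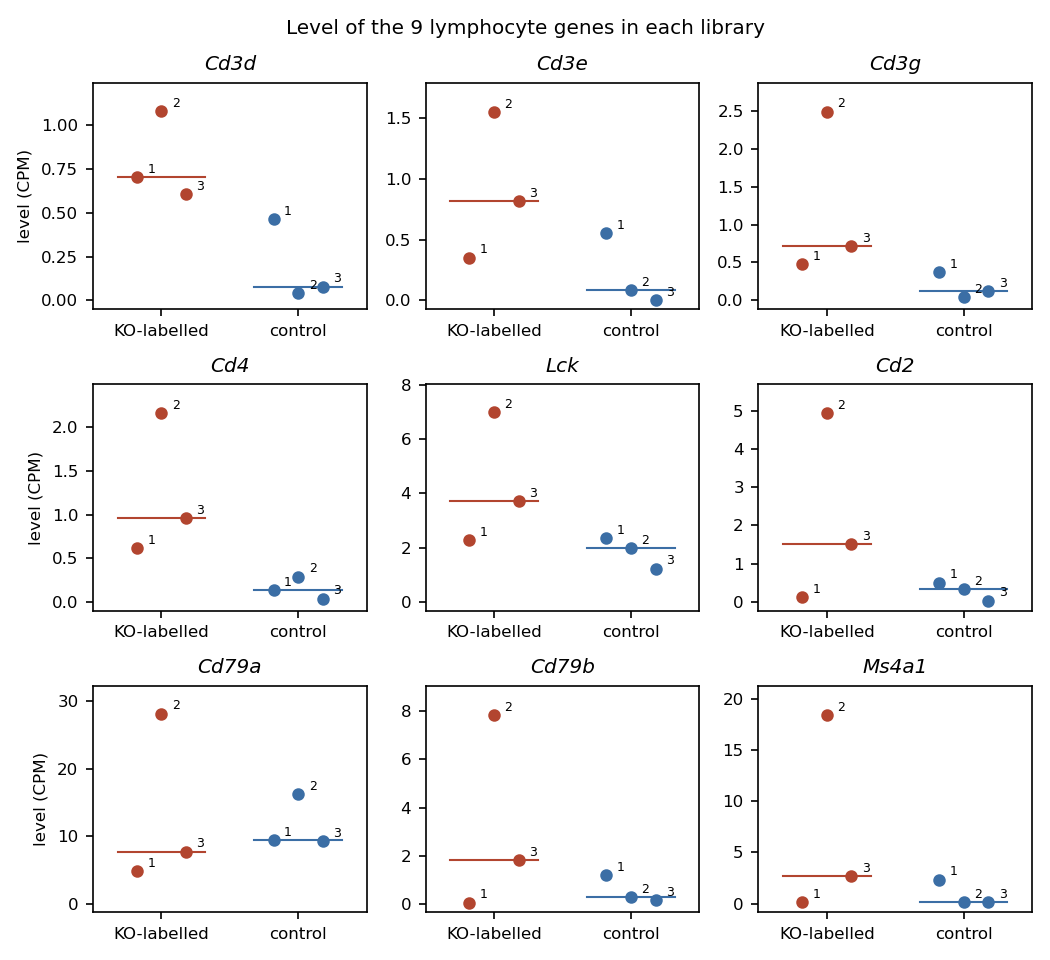
Level of each gene (vertical axis, CPM, a separate linear scale per panel) in the 3 knockout-labelled and 3 control libraries; points carry the replicate number and lines mark group medians. Knockout-labelled library 2 is the highest point in all 9 panels, and the groups are free of overlap only for Cd3d, Cd3g and Cd4.

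Cd4 was the only one of the 9 genes that passed the test, in a comparison where 4.14% of the 13736 tested genes were called higher, 2.63% lower and 6.76% in either direction. Its counts were 14, 46 and 19 in knockout-labelled libraries 1 to 3, against 3, 7 and 1 in controls 1 to 3. Each knockout-labelled library lay above each control. Only the knockout-labelled libraries reached the level of 0.438 CPM that the filter on low counts asks of 3 libraries, so a higher level there was built into Cd4 being tested. CD4 is the coreceptor of helper and regulatory T cells, and in mice some dendritic cells carry it too. It averaged 1.25 ± 0.811 CPM in knockout-labelled libraries and 0.157 ± 0.127 CPM in controls (SD, n = 3 each). It rose by 2.96 ± 0.72 (SE) on the log2 scale (95% interval 1.35 to 4.56, edgeR quasi-likelihood test, Benjamini-Hochberg adjusted p = 0.0416). Without knockout-labelled library 2 the log2 fold change was 2.28 (0.57 to 4.0, edgeR adjusted p = 0.107). The call was lost when any one of the 6 libraries was left out, with edgeR adjusted p between 0.0742 and 0.121.

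The CD3 genes encode the chains that couple the T cell receptor to the cell interior. Cd3g had 11, 53 and 14 counts in knockout-labelled libraries 1 to 3, against 8, 1 and 3 in controls 1 to 3. Cd3d had 16, 23 and 12 counts in knockout-labelled libraries, against 10, 1 and 2 in controls. Both genes were free of overlap in CPM, and control 1 came closest to the knockout-labelled range. They passed the filter on low counts through the knockout-labelled libraries alone, so this separation was largely built into their being tested. Cd3e had 8, 33 and 16 counts in knockout-labelled libraries, against 12, 2 and 0 in controls. Here the groups overlapped, because control 1 lay above knockout-labelled library 1. The 0 in control 3 allows a level of up to 0.119 CPM (3 counts, counting error only).

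None of the 3 chains was called. The log2 fold change was 2.80 for Cd3g (95% interval 0.94 to 4.65, edgeR adjusted p = 0.0693), 2.06 for Cd3d (0.42 to 3.70, 0.111) and 2.12 for Cd3e (0.01 to 4.22, 0.186). Without knockout-labelled library 2 these were 1.74, 1.77 and 1.46, and each interval included 0. Without control 1, Cd3d passed at 3.60 (edgeR adjusted p = 0.0318). The summed CD3 level was 1.54, 5.12 and 2.13 CPM in knockout-labelled libraries 1 to 3, against 1.39, 0.167 and 0.198 CPM in controls 1 to 3. Control 1 thus held a CD3 level near that of knockout-labelled library 1, while controls 2 and 3 held 4 and 5 CD3 counts in all.

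Lck, the kinase that starts T cell receptor signalling, was the most abundant of the T cell genes per kilobase in controls. It had 52, 149 and 73 counts in knockout-labelled libraries 1 to 3, against 51, 48 and 31 in controls 1 to 3. The groups overlapped, since knockout-labelled library 1 (2.29 CPM) lay just below control 1 (2.36 CPM). Its log2 fold change was 1.22 (95% interval 0.28 to 2.16, edgeR adjusted p = 0.102), or 0.67 (−0.21 to 1.56) without knockout-labelled library 2. An exon of Lck overlaps the microRNA gene Mir8119 by 25 bp, and that gene had 0 counts in all libraries. Per kilobase, Lck exceeded the mean of the CD3 genes 2.39, 2.11 and 2.82 times in knockout-labelled libraries 1 to 3 and 2.81 times in control 1. The same ratio was 20.1 and 9.12 in controls 2 and 3, where it rests on 4 and 5 CD3 counts.

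Cd2 encodes an adhesion receptor of lymphocytes and was listed with the T cell genes. It had 3, 105 and 30 counts in knockout-labelled libraries 1 to 3, against 11, 8 and 1 in controls 1 to 3. Knockout-labelled library 1 lay within the control range, and library 2 alone held 66.0% of the CPM summed over the 6 libraries. The log2 fold change was 2.91 (95% interval 0.57 to 5.25, edgeR adjusted p = 0.114), and 1.47 (−0.86 to 3.80) without knockout-labelled library 2.

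The B cell genes depended on single libraries still more. Ms4a1, which encodes the B cell surface protein CD20, had 4, 391 and 53 counts in knockout-labelled libraries 1 to 3, against 51, 4 and 3 in controls 1 to 3. Cd79b, the β chain of the B cell receptor signalling pair, had 1, 167 and 36 counts in knockout-labelled libraries, against 26, 7 and 4 in controls. Knockout-labelled library 1 was below all controls for Cd79b (0.044 CPM) and near the 2 low controls for Ms4a1 (0.176 CPM, against 0.167 and 0.119 CPM), and control 1 was near knockout-labelled library 3. Library 2 held 76.9% of the summed CPM of Ms4a1 and 69.0% of that of Cd79b. The log2 fold change was 3.05 for Ms4a1 (95% interval 0.17 to 5.93, edgeR adjusted p = 0.168) and 2.58 for Cd79b (0.00 to 5.15, 0.188). Without knockout-labelled library 2 they were 0.70 (−2.07 to 3.46) and 0.75 (−1.81 to 3.30).

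Cd79a, the α chain of the same pair, did not follow its partner. It had 110, 601 and 152 counts in knockout-labelled libraries 1 to 3, against 203, 390 and 234 in controls 1 to 3. Knockout-labelled library 2 was highest, but libraries 1 and 3 lay below every control. The mean level was 13.6 ± 12.8 CPM in knockout-labelled libraries and 11.6 ± 4.0 CPM in controls (SD, n = 3 each). This gave a log2 fold change of 0.22 (95% interval −0.96 to 1.41, edgeR adjusted p = 0.828), and −0.15 with limma-voom. Without knockout-labelled library 2 it changed sign, to −0.91 (−1.59 to −0.22, edgeR adjusted p = 0.107).

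CD79A and CD79B work as a pair, and their transcripts were far from a constant ratio. Per kilobase of exon, Cd79a exceeded Cd79b 99.3, 3.25 and 3.81 times in knockout-labelled libraries 1 to 3. In controls 1 to 3 it did so 7.05, 50.3 and 52.8 times. The exact 95% binomial intervals, which cover counting error only, were 2.73 to 3.88 in knockout-labelled library 2 and 2.64 to 5.65 in library 3. In controls 2 and 3 they were 24.2 to 126 and 20.4 to 195, and in control 1 the interval was 4.67 to 11.1. In knockout-labelled library 1 the interval of 17.5 to 3960 rests on a single Cd79b count. The ratio follows its denominator, since Cd79b ran from 0.044 to 7.85 CPM over the 6 libraries and Cd79a from 4.84 to 28.2 CPM. No exon of Cd79a (chromosome 7, 24897511 to 24902197, mm10) overlaps another listed gene, and Arhgef1 begins 789 bp downstream. The source of the Cd79a counts in libraries nearly free of other B cell transcripts was not tested.

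**Figure D2:**
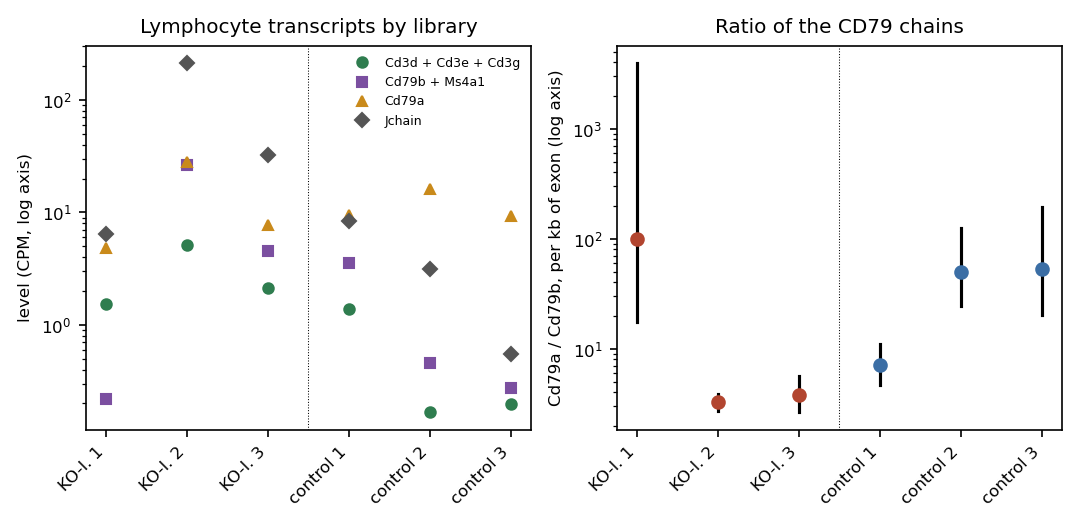
Left, CPM (log axis) of the summed CD3 genes, of Cd79b plus Ms4a1, of Cd79a and of Jchain in each library (KO-l., knockout-labelled); right, the ratio of Cd79a to Cd79b per kilobase (log axis) with exact 95% binomial intervals. Cd79a stays between 4.84 and 28.2 CPM while Cd79b plus Ms4a1 run from 0.220 to 26.2 CPM, and the ratio is lowest in knockout-labelled libraries 2 and 3.

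Per kilobase of exon, Cd79a was the highest of the 9 genes in each of the 6 libraries. In knockout-labelled libraries its mean of 10.2 ± 9.62 CPM per kb was followed by Ms4a1 (3.44 ± 4.79), Cd79b (2.70 ± 3.41), Cd2 (1.92 ± 2.16), Lck (1.89 ± 1.05), Cd3g (1.20 ± 1.07), Cd3e (0.630 ± 0.421), Cd3d (0.600 ± 0.187) and Cd4 (0.403 ± 0.262). No neighbours in that order differed by more than the larger of their SDs (n = 3). In controls the order of mean levels was Cd79a (8.77 ± 3.01 CPM per kb), Lck (0.810 ± 0.252), Cd79b (0.460 ± 0.475), Ms4a1 (0.429 ± 0.623), Cd2 (0.257 ± 0.207), Cd3g (0.173 ± 0.168), Cd3e (0.148 ± 0.209), Cd3d (0.146 ± 0.175) and Cd4 (0.0506 ± 0.0410). Only Cd79a stood clear of its neighbour there.

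The balance of B to T cell transcripts also differed between libraries of 1 label. As a ratio of counts, read only across libraries, Cd79b and Ms4a1 together were 0.143 times the CD3 genes in knockout-labelled library 1 (exact 95% interval 0.0437 to 0.366). They were 5.12 times (4.16 to 6.34) in library 2 and 2.12 times (1.45 to 3.14) in library 3. In controls the ratio was 2.57 (1.66 to 4.06), 2.75 (0.815 to 11.8) and 1.40 (0.382 to 5.59). Knockout-labelled library 1 thus held CD3 counts with almost no Cd79b or Ms4a1, and its interval lay apart from those of the other 5 libraries.

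As a set, the 9 genes all had log2 fold changes above 0, and their median was 2.58 beside 0.01 over all tested genes. Without knockout-labelled library 2 the median was 1.46, and 8 of the 9 were positive. None was then called by edgeR, where 5.15% of tested genes were, and only Cd4 (higher) and Cd79a (lower) had an unadjusted p under 0.05, where 25.4% of tested genes did. With all libraries, 8 of the 9 had an unadjusted p under 0.05, where 14.9% of tested genes had one and were higher. The groups did not overlap for 3 of the 9, all higher, against 16.9% of tested genes. All 9 passed the filter on low counts, but only Lck and Cd79a reached its level in all controls. Cd3d and Cd3g, like Cd4, passed through the knockout-labelled libraries alone. For these 3 genes the lack of overlap was therefore largely built into their being tested, and 3 of 9 is not read as an excess over 16.9%. Cd3e, Cd2, Cd79b and Ms4a1 reached the filter level in 2 knockout-labelled libraries and 1 control. Knockout-labelled library 2 also led for all 9 genes. For both reasons, the 8 of 9 and the median of 2.58 are not read as an excess over all tested genes either.

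**Figure D3:**
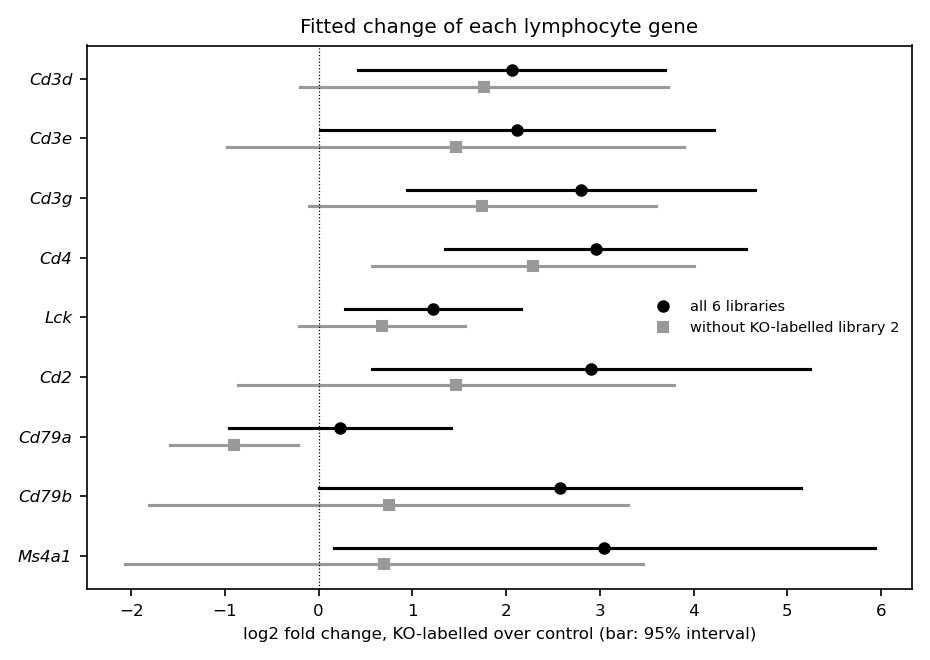
Fitted log2 fold change of each gene, knockout-labelled over control, with its 95% interval, from all 6 libraries (black) and without knockout-labelled library 2 (grey). All grey points lie left of the black ones, Cd79a moves to −0.91, and of the other 8 genes only Cd4 keeps an interval above 0.

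Other genes of T cell receptor signalling and T cell identity were mostly too low to test. Of 40 listed, 15 passed the filter; 1 rose (Rasgrp1), 1 fell (Skap1) and 13 were not called, with a median log2 fold change of 1.16 (0.68 without knockout-labelled library 2). Rasgrp1, a Ras activator of lymphocytes that other tissues also use, had 67, 54 and 31 counts in knockout-labelled libraries 1 to 3, against 11, 7 and 4 in controls 1 to 3. Its order among the knockout-labelled libraries was not that of the CD3 genes, and it rose by 2.88 ± 0.49 on the log2 scale (edgeR adjusted p = 0.0169), also without library 2 (2.82, 0.0301). Skap1, an adaptor of T cell adhesion, fell by 0.38 ± 0.10 on the log2 scale (edgeR adjusted p = 0.0485) and was not called without knockout-labelled library 2, though its value there was no smaller (−0.44, edgeR adjusted p = 0.0566). It had 753 to 1008 counts in knockout-labelled libraries and 1211 to 1368 in controls. Controls 2 and 3, with 4 and 5 CD3 counts in all, had 1350 and 1368, so Skap1 did not follow the CD3 genes. The cells that its counts came from were not tested.

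Among genes outside the test, the receptor ζ chain Cd247 had 4, 17 and 7 counts in knockout-labelled libraries 1 to 3, against 9, 4 and 2 in controls 1 to 3. The kinase Zap70 had 5, 21 and 0 counts in knockout-labelled libraries, against 3, 0 and 1 in controls. The cytotoxic coreceptor Cd8a had 2, 7 and 7 counts in knockout-labelled libraries and 4, 2 and 2 in controls, so its transcript was near the limit of detection in both. Foxp3, the regulatory T cell factor, had 2, 8 and 3 counts in knockout-labelled libraries and 0 in all controls. That 0 allows up to 0.119 to 0.139 CPM per control, against 0.088, 0.376 and 0.152 CPM in knockout-labelled libraries 1 to 3. With so few counts no fold is given. Of the tested T cell identity genes none was called by edgeR, among them S1pr1, a lipid receptor that endothelium also carries (log2 fold change 0.45, edgeR adjusted p = 0.110), and 4 were higher at an unadjusted p under 0.05.

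Of 32 further B cell genes, 31 were listed in the table and 20 were tested; 3 rose (Syk, Blnk and Pik3ap1), none fell and 17 were not called. The median log2 fold change was 1.60, and 0.94 without knockout-labelled library 2, where only Syk was called. Syk, the kinase that CD79 recruits, had 96, 176 and 71 counts in knockout-labelled libraries 1 to 3, against 33, 37 and 44 in controls 1 to 3. It rose by 1.74 ± 0.34 on the log2 scale (edgeR adjusted p = 0.0249), and by 1.27 without library 2 (0.0443). The adaptors Blnk (1.36 ± 0.31, edgeR adjusted p = 0.0350) and Pik3ap1 (1.45 ± 0.35, 0.0396) also rose. Macrophages use all 3 of these genes, and macrophage markers were higher in the same libraries, as given below. The cells behind the rise of Syk, Blnk and Pik3ap1 were not tested.

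The B cell transcription factor Pax5 had 3 counts or fewer everywhere. Ebf1 and Cd37, the tested B cell identity genes with the highest mean CPM over the 6 libraries, were not called. Their log2 fold changes were 0.98 (edgeR adjusted p = 0.0666) and 3.17 (0.0532), and 0.76 and 2.17 without library 2. Jchain, which joins secreted antibodies of plasma cells into polymers, had 145, 4539 and 643 counts in knockout-labelled libraries 1 to 3, against 182, 75 and 14 in controls 1 to 3. Its log2 fold change of 4.41 was not called (edgeR adjusted p = 0.0511) and was 2.28 without library 2 (0.130), and knockout-labelled library 1 lay below control 1. Of 7 plasma cell genes in the table, 3 were tested and none was called. Pim2, with the highest mean CPM over the 6 libraries, had a log2 fold change of −0.19 (edgeR adjusted p = 0.352). Its level was 60.6 to 86.9 CPM, also in libraries with few lymphocyte counts. Knockout-labelled library 2 was the highest of the 6 libraries for 5 of the 7 plasma cell genes.

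Knockout-labelled library 2 was the highest of the 6 libraries for 26 of the 40 further T cell genes and for 30 of the 31 further B cell genes. It was highest for 1672 of the 13736 tested genes as a whole. NK and cytotoxic genes were low: of 12, only the chemokine gene Ccl5 was tested (log2 fold change 1.17, edgeR adjusted p = 0.206). Ncr1, the defining NK receptor, had 1, 0 and 0 counts in knockout-labelled libraries and 0, 0 and 2 in controls, and Klrb1c had 0 in all. The cytotoxic granule gene Nkg7, which T cells share, had 3, 21 and 5 counts in knockout-labelled libraries, against 6, 9 and 0 in controls, and the receptor gene Klrk1 had 6, 4 and 8, against 2, 1 and 3.

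Several genes shared by all leukocytes passed the test. Of 15 tested, 9 rose, none fell and 6 were not called, and 5 of the 15 rose without knockout-labelled library 2 (median log2 fold change 1.52, and 0.97 without it). Ptprc, which encodes the leukocyte common antigen CD45, had 121, 443 and 165 counts in knockout-labelled libraries 1 to 3, against 114, 81 and 87 in controls 1 to 3. Its log2 fold change was 1.52 (edgeR adjusted p = 0.0643), and 0.75 without library 2 (0.148). Laptm5 (1.21 ± 0.20 on the log2 scale, edgeR adjusted p = 0.0169) and Lsp1 (2.07 ± 0.37, 0.0205) rose, as did Cd53 (1.83 ± 0.34, 0.0209) and the integrin β2 gene Itgb2 (1.70 ± 0.31, 0.0210). Without library 2 these 4 were called too, at log2 fold changes of 0.87, 1.63, 1.32 and 1.37.

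Markers of macrophages and of acinar, endothelial and β cells were followed too, and most of these genes were not highest in knockout-labelled library 2. Of 17 macrophage genes 8 rose and none fell (4 rose without knockout-labelled library 2), and their summed level was 296 to 361 CPM in knockout-labelled libraries and 178 to 185 CPM in controls. Cd68, a lysosomal protein of macrophages, had 304, 240 and 371 counts in knockout-labelled libraries 1 to 3, against 69, 101 and 90 in controls 1 to 3. Library 2 was the lowest of the 3 for that gene, and it was the highest for 5 of the 17 macrophage genes. The macrophage median log2 fold change was 0.91, and 0.90 without library 2. The 13 acinar genes summed to 27500 to 31300 CPM in knockout-labelled libraries and 1040 to 11500 CPM in controls, with library 2 between the other knockout-labelled libraries. Of 12 tested acinar genes none was called by edgeR, with 10 at an unadjusted p under 0.05 and higher. Endothelial genes rose for 6 of 9, and for 5 without library 2 (summed level 441 to 521 CPM in knockout-labelled libraries and 294 to 391 CPM in controls). Of 8 β cell genes, Ucn3, Nkx6-1 and Slc2a2 fell and none rose. The part of these cells in the lymphocyte results was not tested.

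Markers of lymph node stroma and vessels gave no uniform picture. Ccl21a and Glycam1, which mark lymph node stroma and high endothelial venules, had 0 counts in all 6 libraries. The multi-mapping setting was not stated, so for a gene with near-identical copies a 0 need not mean absence. The summed level of the 10 genes was 52.1 to 70.9 CPM in knockout-labelled libraries and 70.6 to 77.2 CPM in controls. Prox1 alone gave 43.1 to 51.3 CPM of it in knockout-labelled libraries and 61.4 to 65.4 CPM in controls, so the sum mostly reflects that gene. Ccl19, a chemokine for CCR7-bearing cells, rose by 2.06 ± 0.44 on the log2 scale (edgeR adjusted p = 0.0307), and was not called at 1.94 without knockout-labelled library 2 (0.0590). Prox1, a factor of lymphatic endothelium that islet cells also express, fell by 0.42 ± 0.10 (0.0351), also without that library (−0.50, 0.0347). The untested Cxcl13, a B cell attractant, had 9, 155 and 23 counts in knockout-labelled libraries 1 to 3, against 6, 5 and 1 in controls 1 to 3.

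**Figure D4:**
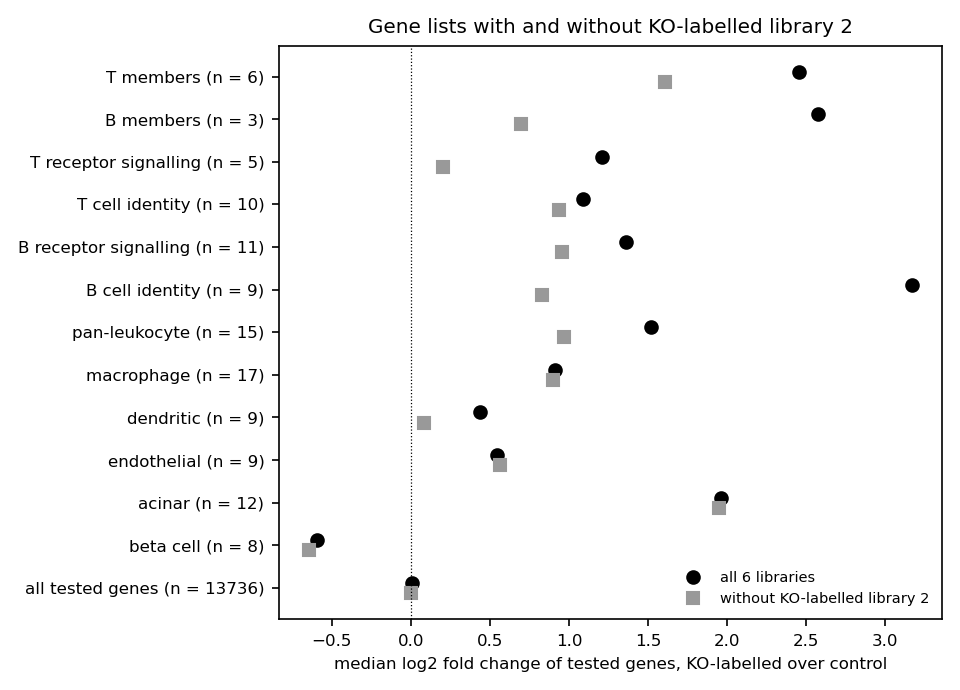
Median log2 fold change, knockout-labelled over control, of the tested genes of each list, with all 6 libraries (black circles) and without knockout-labelled library 2 (grey squares); n is the number of tested genes. Without that library the medians of both sets of members, of the T and B cell lists, and of the pan-leukocyte (1.52 and 0.97) and dendritic (0.43 and 0.09) lists lie lower, while macrophage (0.91 and 0.90), endothelial (0.54 and 0.56) and acinar (1.96 and 1.95) medians stay close.

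Over the 6 libraries, Cd79a had the lowest median correlation with the other 8 genes (Pearson r of log2 CPM 0.442), and Lck the highest (0.902). Among 12134 tested genes whose log2 CPM averaged 0 or more, those most like the mean of the T cell genes were Stk17b (r = 0.996), Gca (0.990), Jchain (0.990), Cytip (0.987) and Muc4 (0.987). Stk17b, a kinase of lymphocyte apoptosis, had 126, 305 and 151 counts in knockout-labelled libraries 1 to 3, against 107, 80 and 52 in controls 1 to 3. Gca and Muc4 followed the same order over a narrow range, 283 to 332 counts of Gca in knockout-labelled libraries and 270 to 276 in controls. The genes most like the mean of the B cell genes were Tmed5 (r = 0.987), Rfwd2 (0.973), Dcbld2 (0.970), Bid (0.962) and Mrpl23 (0.959). Tmed5 had 650 to 858 counts in knockout-labelled libraries and 706 to 751 in controls, so its range was small. These r values describe 6 libraries, 1 of which lies far from the rest.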

How the data were processed

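RNA from 6 islet samples was measured; per the labels' protocols, 10 ng of total RNA was copied with poly-dT priming (SMART-Seq v4), sonicated and made into Ion Plus Fragment libraries. Build mm10, STAR 2.4.2a, Subread 1.5.0 (featureCounts) and edgeR appear in the submitters' processing notes. The annotation and the strand and multi-mapping settings were not stated there. The authors deposited unnormalized counts per gene. The deposited gene length column, in another unit (bp), served for levels per kilobase.

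Columns were matched to samples by name. Counts were tested in edgeR 4.0.16 (R 4.3.3) with TMM factors, the default expression filter (13736 genes), quasi-likelihood fits with group as the only term, and Benjamini-Hochberg adjustment over all tested genes at 0.05. Standard errors come from the fold change and F value. Replicates differed by more than counting noise (chi-square per degree of freedom 10.8 or more). The procedure was tested on simulated data.

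The members, gene lists and rules were chosen with earlier results of these data known. Named genes were the 9 members; from each list up to 4 called genes or, with none called, the 2 highest; a fixed set; and the 5 genes most like each mean. Ins2, H2-Aa, Cxcl13, Nkg7, Klrk1 and genes at 0 counts were added after their values were seen. Some genes under these rules are not reported here. Alternatives used DESeq2 1.42.0, limma 3.58.1 (voom), RLE and upper-quartile factors, other filters, a replicate block and leaving out each library.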

Additional observations from a re-analysis of the deposited data

How the results depend on the processing

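Leaving out each library in turn gave 64 to 968 called genes in all (929 with all libraries), 0 to 1 of the 9 lymphocyte genes, 0 to 4 of the further T cell genes (2 with all libraries) and 0 to 5 of the further B cell genes (3 with all libraries). The lowest totals came without knockout-labelled library 1 (64), control 2 (99), control 3 (216) and knockout-labelled library 3 (344). At an unadjusted p under 0.05, edgeR had 2 to 8 of the 9 genes in these fits, where 20.3% to 26.8% of tested genes passed. The lowest counts, 2 without control 3 and 2 without knockout-labelled library 2, are near that share. Higher counts are not read as an excess, for the reasons given with the 9 genes as a set. The median log2 fold change of the 9 ran from 1.46 to 3.60. The difference in summed level, knockout-labelled minus control, ran from 3.5 to 10.9 CPM for the T cell genes (7.81 with all libraries) and from −4.49 to 20.2 CPM for the B cell genes (10.8 with all libraries). The B cell value of −4.49 CPM, and Cd79a at a log2 fold change of −0.91, came without knockout-labelled library 2. The filter and TMM factors were computed anew in that fit, with 13949 genes tested. Without the other libraries in turn Cd79a reached up to 0.63. Cd79a made up most of the B cell sum in each library. Without library 2, Cd79b and Ms4a1 kept log2 fold changes above 0, at 0.75 and 0.70, with intervals that included 0.

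With no filter edgeR called 1413 genes, 7.84% of the 18016 tested. These included 2 of the 9 (Cd3g and Cd4), 7 further T and 11 further B cell genes. DESeq2 called 1702 genes, 12.4% of those tested, against 6.76% in the main edgeR fit. The DESeq2 calls included 3 of the 9 (Cd3g, Cd4 and Lck), 4 further T and 8 further B cell genes. limma-voom called 0 of the 9 (5 at an unadjusted p under 0.05, where 26.4% of tested genes passed) and gave Cd79a −0.15. When 1 CPM in 3 libraries was required, edgeR called 0 of the 4 members that passed (3 at an unadjusted p under 0.05, where 26.7% passed). Upper-quartile factors left 1 further T cell gene called. The cause of these shifts was not tested. A replicate block gave 826 genes (6.01% of those tested), 1 of the 9 (Cd4), 1 further T cell gene and Cd79a at −0.086. Same-numbered libraries did not deviate together (correlations of −0.037, −0.0069 and 0.055). The labels state no pairing, and these values alone cannot show whether the samples were paired. Below about 10 counts a library, as for most members in controls, counting error alone is large.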

Other observations

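Dendritic cell and antigen-presentation genes did not share 1 direction. Of 9 tested, Ccl22 rose and Siglech fell, and 7 were not called. Ccl22, a chemokine of dendritic cells that attracts CCR4-bearing T cells, had 21, 47 and 27 counts in knockout-labelled libraries 1 to 3, against 9, 5 and 13 in controls 1 to 3 (log2 fold change 1.96 ± 0.51, edgeR adjusted p = 0.0490). Siglech, a marker of plasmacytoid dendritic cells that some macrophages also express, had 6, 5 and 3 counts in knockout-labelled libraries, against 22, 39 and 25 in controls (−2.44 ± 0.49, edgeR adjusted p = 0.0269). Both missed the threshold without knockout-labelled library 2, at log2 fold changes of 1.56 (edgeR adjusted p = 0.130) and −2.50 (0.0506), so that the value of Siglech was as large without that library. Siglech passed the filter on low counts through the controls alone, so a lower knockout-labelled level was built into its being tested. The class II gene H2-Aa had 2162, 3310 and 1352 counts in knockout-labelled libraries, against 1652, 1911 and 1851 in controls, with a log2 fold change of 0.48 (edgeR adjusted p = 0.229) and 0.09 without library 2.

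Granulocyte and mast cell genes were almost undetected. Of 9 in the table only Csf3r was tested, with 22, 22 and 19 counts in knockout-labelled libraries 1 to 3 and 11, 9 and 9 in controls 1 to 3 (log2 fold change 1.25, edgeR adjusted p = 0.0956). Cpa3 and Mcpt4 had 0 counts in all 6 libraries.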
